A study of Mus musculus with 59 samples.

Results

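The passage of mutant mouse spinal cord from 8 to 12 weeks of age was examined in 8 libraries, selected by their labels from the 59 of the series. They comprised whole spinal cord RNA in 1 library from female and 1 from male mice labelled SOD1_G93A mutant at 8 weeks, 1 of each sex at 12 weeks, and 1 of each sex labelled WT (wild type) at each of those ages. The 2 wild-type ages served as the reference for normal growth, and 8 more cords of 4 and 17 weeks entered the model so that all 16 cords shared an estimate of the spread. The other 43 libraries of the series came from cultured cells and were not used. The labels name no treatment and no other allele for either genotype. The labels give no strain, transgene promoter or copy number, and do not say whether a library came from 1 animal or several. Nothing states that the female and the male of a group came from independent animals or litters, so the p-values speak of the spread among these samples alone, part of which may be technical. In each pair of values below the female comes first and the male second.

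SOD1_G93A is a mutant form of human superoxide dismutase 1 whose expression in mice causes a motor neuron disease that models amyotrophic lateral sclerosis (ALS). In this model the motor neurons of the cord are lost over months, and weakness follows a long phase without visible signs. Microglia, the resident macrophages of the cord, and astrocytes, its main supporting glia, are known to change state as the neurons are lost. Disease-associated microglia lower their resting genes and raise genes of phagocytosis, lysosomes and lipid handling under the receptor TREM2, and reactive astrocytes raise intermediate filaments and secreted proteins such as GFAP and SERPINA3N. Age 12 weeks is the first of the sampled ages that follows 8 weeks, and the labels do not stage the mice by symptoms.

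The mouse Sod1 entry (ENSMUSG00000022982, mm9 chr16:90220987-90226568) read 120 and 119 in mutants at 8 weeks and 68.7 and 127 at 12 weeks, against 103 and 92.7, then 102 and 113, in wild types. These values do not separate the genotypes, and whether reads of the human transgene were aligned to the mouse entry was not tested. The deposited values resemble RPKM, that is, reads divided by gene length and by the library total, so levels of different genes can be set side by side. The 8 libraries held 23866988 to 49146066 reads on genes, and spread between the replicates of a group was 14.7 to 46.6 times counting noise over all 16 cords. The labelled tissue matched its markers: transcripts defining neurons, motor neurons, oligodendrocytes, astrocytes and microglia were present in all 8 libraries. The 2 liver markers summed to at most 0.0776 and the 3 muscle markers to at most 0.691. One defining motor neuron marker, Slc18a3, was not found under that name.

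From 8 to 12 weeks 150 genes rose and 32 fell in mutant cord, 182 of the 14645 genes tested (1.24%, limma, adjusted p under 0.05). The risen genes made up 1.02% and the fallen 0.219% of genes tested. Over the same 4 weeks only 7 genes passed the test in wild types (0.0478%), 2 of them higher (0.0137%) and 5 lower (0.0341%). The 150 risen genes had a median log2 change of 1.09 in mutants (0.71 to 2.58), where a log2 change is a difference of log2(value + 1) and understates the fold of genes with low values. In wild types the same genes had a median of 0.005, with 77 above 0 and 73 below, and 0 of them passed the wild-type test. The median rise of the 150 was 1.04 in females and 1.12 in males, against −0.03 and 0.08 over all genes. Both sexes entered the choice of these genes, so the likeness of the sexes was not tested. Protein-coding genes made up 95.3% of the risen genes, 62.5% of the fallen and 85.0% of all genes tested. The number of calls depended on single libraries: 86 genes passed without the female mutant of 12 weeks, 79 without the female of 8 weeks and 59 without the male of 8 weeks, while all 182 kept their sign in each of the 15 other settings that tested them. In those, 41 risen and 2 fallen genes always passed, of which 28 and 1 were tested in all 15 and the rest fell below the minimum value in at least 1, mostly the minimum of 5. Without the male mutant of 12 weeks the split moved to 91 higher and 71 lower, and 119, 95 and 561 genes passed with a pseudocount of 0.1, a minimum value of 5 and voom on recovered reads.

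**Figure D1:**
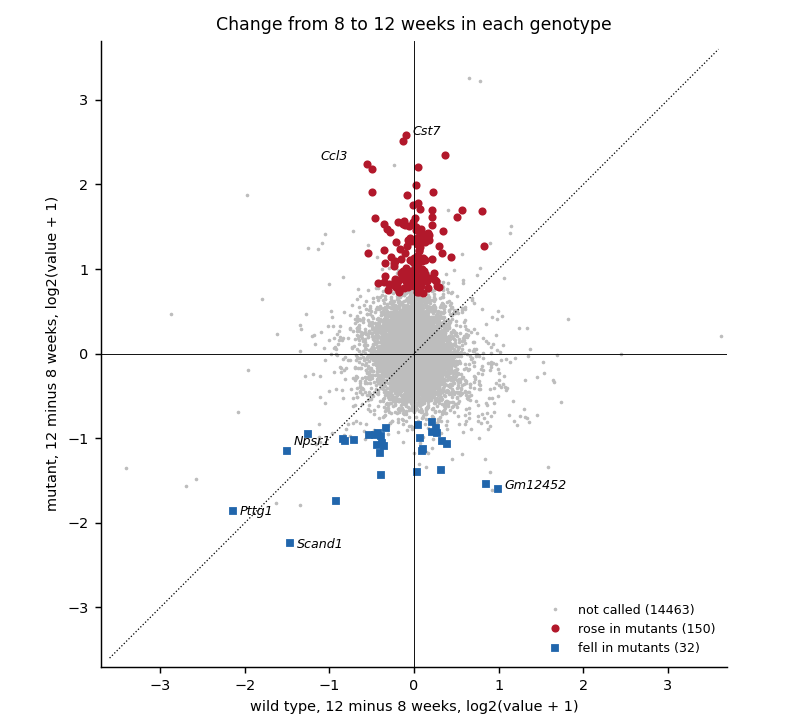
Change of each of 14645 genes from 8 to 12 weeks in wild types (x axis) and mutants (y axis), both as differences of log2(value + 1), with 1 point a gene. The 150 genes that rose in mutants (red) lie around 0 on the wild-type axis (median 0.005), while part of the 32 that fell (blue), Pttg1 and Npsr1 among them, also lie below 0 there. The dotted line marks equal change in both genotypes.

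The risen genes of largest change were led by transcripts of activated microglia. Cst7, which encodes the cysteine protease inhibitor cystatin F (mm9 chr2:150396151-150404681), had values of 0.930 and 0.478 at 8 weeks and 9.12 and 9.10 at 12 weeks, a log2 change of 2.58 ± 0.24 (SE, 2 libraries a group, limma adjusted p = 3.4e-05). In wild-type cord it stayed at or under 0.199 in all 4 libraries, so that the 12-week mutants stood apart from every other library of these ages. Clec7a, the receptor dectin-1 for fungal glucans, had values of 0.390 and 1.41, then 9.82 and 9.05 (log2 change 2.51 ± 0.25, limma adjusted p = 7.1e-05), and at most 0.431 in wild types. Lyz2, lysozyme of macrophages, went from 5.89 and 6.65 to 37.1 and 28.3 (log2 change 2.20, limma adjusted p = 0.0002). The 4 wild types lay at 2.78 to 6.03, far below both 12-week mutants. Cd52, a surface glycoprotein of leukocytes, had values of 1.92 and 1.91 and then 11.3 and 13.3 (log2 change 2.19, limma adjusted p = 0.00011). Mpeg1, the pore-forming protein perforin-2 of macrophages, went from 7.71 and 6.90 to 36.5 and 28.0 (log2 change 1.99, limma adjusted p = 0.0001). Cd68, a lysosomal glycoprotein of phagocytes, went from 5.74 and 3.57 to 18.2 and 17.9 (log2 change 1.78, limma adjusted p = 0.00061). In wild types Cd52, Mpeg1 and Cd68 showed no such step, with values of 1.27 to 2.46, 6.46 to 7.23 and 2.95 to 4.53. S100a4, a calcium-binding protein, was more variable, at 2.91 and 1.12 and then 6.12 and 11.2 (log2 change 1.69, limma adjusted p = 0.015). Gm14539, a processed pseudogene listed at 0 in both 8-week mutants and at 5.39 and 3.06 at 12 weeks, had a fitted log2 change of 2.35, and its reads may belong to a near-identical copy.

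**Figure D2:**
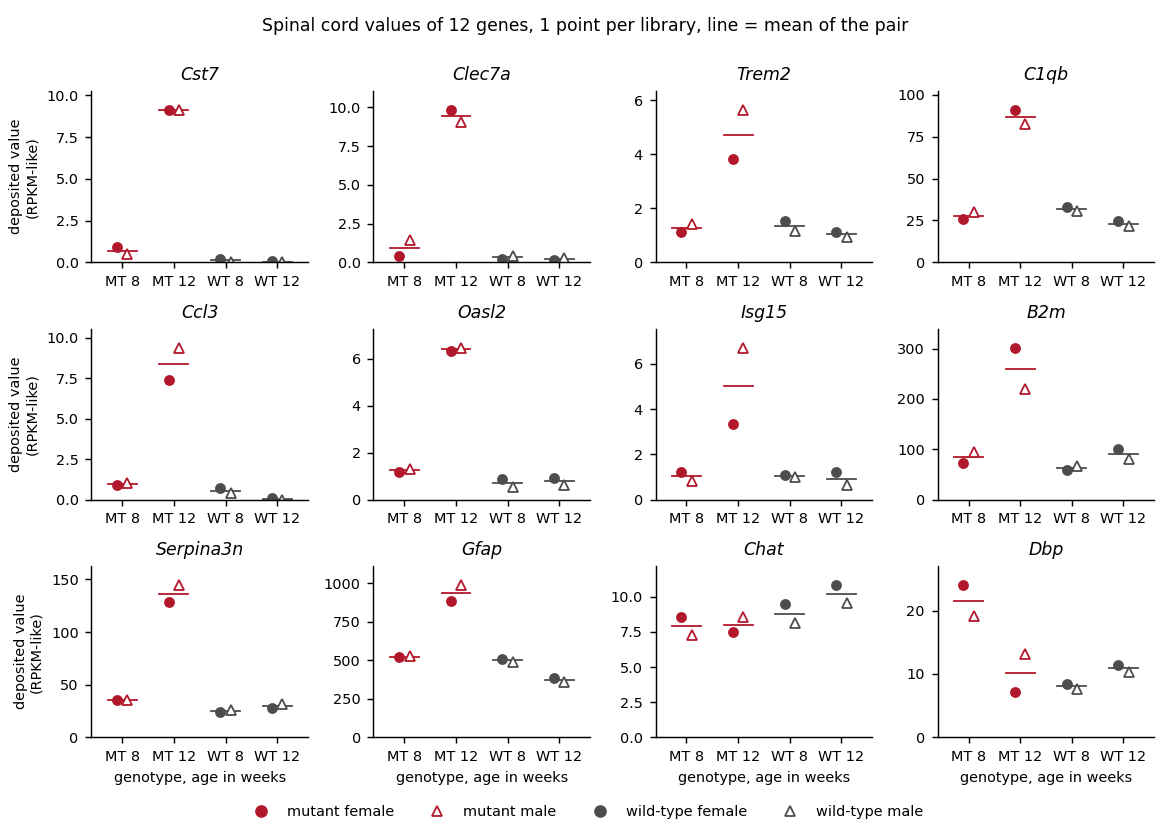
Deposited values (RPKM-like, linear axes from 0) of 12 genes in mutant (MT, red) and wild-type (WT, grey) cords of 8 and 12 weeks, with 1 point a library (filled circle female, open triangle male) and a line at the mean of each pair. For Cst7, Clec7a, Trem2, C1qb, Ccl3, Oasl2, Isg15, B2m, Serpina3n and Gfap both 12-week mutants lie above every other library, Chat shows no such step (7.51 and 8.53 against 8.58 and 7.28), and Dbp is highest in the 8-week mutants (24.0 and 19.1).

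Microglial transcripts rose together. Of 17 tested microglia and macrophage markers 12 rose and 0 fell, with a median log2 change of 1.24 in mutants against 0.02 over all genes, and −0.01 in wild types. All 17 had both 12-week mutants above both 8-week mutants, which held for 29% of all genes tested. Of 25 disease-associated microglia genes 11 rose and 0 fell (median 0.99), and of 13 homeostatic microglia genes, which resting microglia express, 4 rose and 0 fell (median 0.70). The resting genes that rose included Gpr34, Cx3cr1 and Csf1r. Gpr34, a receptor of lysophosphatidylserine, had values of 4.13 and 2.43 at 8 weeks and 8.11 and 7.20 at 12 weeks (log2 change 1.04, limma adjusted p = 0.019). Cx3cr1, the fractalkine receptor, had values of 10.8 and 9.85, then 18.3 and 24.6 (log2 change 0.97, limma adjusted p = 0.016). Csf1r, the receptor on whose signal microglia depend for survival, had values of 18.6 and 18.4, then 34.7 and 37.8 (log2 change 0.93, limma adjusted p = 0.012). In each of these genes the 2 ages did not overlap in mutants, and all wild-type libraries lay below the 12-week mutants. P2ry12, a purinergic receptor of resting microglia, had values of 11.6 and 9.77 and then 14.3 and 17.9, and Tmem119, a surface protein specific to microglia, 7.19 and 8.74 and then 11.5 and 12.0 (limma adjusted p = 0.45 and 0.23). The defining microglial markers summed to 111 and 110 at 8 weeks and 200 and 243 at 12 weeks in mutants, and to 104 to 117 in wild types. In bulk tissue, more cells of a type and more RNA per cell cannot be told apart.

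Calls among these lists leaned on single libraries to different degrees. Of the 12 risen markers C1qa, C1qb, C1qc, Cd14, Ctss, Fcer1g and Mpeg1 passed in each of 15 other settings, and Cybb in the 14 that tested it, all but the minimum value of 5. Of the 11 risen disease-associated genes 6 did, Cd68, Clec7a, Cst7, Ctsd, Lyz2 and Trem2, and of the 4 risen resting genes 0 did: all 4 lost the call without the male mutant of 8 weeks, and 3 without each of the other mutants. The remaining disease-associated genes included several abundant ones, picked here after their values were seen. Apoe, the main lipid carrier of the cord, had values of 738 and 780, then 702 and 1271. Spp1, the secreted protein osteopontin, had 72.4 and 50.3, then 95.2 and 78.3. Neither was called, and for Apoe the ages overlapped.

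Receptors and adaptors of phagocytosis rose with the markers. Of 12 tested genes of TREM2 and phagocytosis signalling 7 rose and 0 fell (median log2 change 0.74). Trem2, the lipid-sensing receptor (mm9 chr17:48485726-48493473), had values of 1.11 and 1.43 at 8 weeks and 3.83 and 5.63 at 12 weeks (log2 change 1.32 ± 0.18, limma adjusted p = 0.00074). Wild-type values of Trem2 lay between 0.942 and 1.55, below both 12-week mutants. Its signalling adaptor Tyrobp had values of 24.7 and 29.1, then 55.1 and 82.7 (log2 change 1.30, limma adjusted p = 0.0093). Itgb2, the beta chain of leukocyte integrins, rose by a log2 change of 1.36, and the sialic acid receptor Cd33 by 1.12 (limma adjusted p = 0.0017 and 0.011). Havcr2, the checkpoint receptor TIM-3, and Vav1, a nucleotide exchange factor, rose by 0.90 and 0.75 (limma adjusted p = 0.036 and 0.03), and the seventh was Axl, a receptor that binds dying cells through GAS6. Trem2 alone of the 7 passed in all 15 other settings, and 6 lost the call without the male mutant of 8 weeks. Of 13 Fc and pattern receptors 5 rose (median 0.65): Fcgr3, Fcgr2b, Cd14, Tlr2 and Tlr7. Fcgr3, an activating receptor for immunoglobulin G, had values of 5.36 and 3.34, then 13.8 and 13.3 (log2 change 1.47, limma adjusted p = 0.0028). Tlr2, a receptor of bacterial lipopeptides, had values of 1.81 and 1.91, then 5.12 and 5.42 (log2 change 1.13, limma adjusted p = 0.00074). The 4 wild-type values of Tlr2, 1.37 to 1.88, did not exceed the higher of the 8-week mutants. Cd14 and Tlr2 passed in all other settings, and the other 3 lost the call without the male mutant of 8 weeks.

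Part of the complement genes rose. All 3 chains of C1q, the initiator of the classical pathway, rose with the receptor C3ar1, making 4 of 11 tested complement genes (median log2 change 0.71), while C1ra and C1s1, the proteases of the same complex, were below the minimum for testing. C1qb (mm9 chr4:136436044-136442103) had values of 25.8 and 30.0 at 8 weeks and 90.9 and 82.7 at 12 weeks (log2 change 1.60 ± 0.21, limma adjusted p = 0.0004). In wild types C1qb read 33.3 and 30.9 at 8 weeks and 24.4 and 21.6 at 12 weeks, a log2 change of −0.47 that was not called. C1qc went from 16.3 and 17.9 to 48.8 and 56.5, and C1qa from 27.2 and 30.9 to 66.4 and 91.6 (log2 changes 1.57 and 1.40, limma adjusted p = 0.0002 and 0.0016). C3ar1, the receptor of the C3a fragment, had values of 0.749 and 0.992, then 4.63 and 4.02 (log2 change 1.51, limma adjusted p = 0.00011). These 4 calls held in all 15 other settings. C3 itself, the central component, had values of 46.7 and 40.1 and then 32.6 and 50.7, with overlapping ages and no call (log2 change −0.09, limma adjusted p = 0.98), a gene picked here after its values were seen.

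For 2 risen genes of the microglial lists the 250 bases before the transcription start are printed, because both hold a match to the motif GAGGAAG of PU.1, the transcription factor that defines macrophages. The sequences are those of RefSeq (GRCm38.p6), 5′ to 3′ on the strand of the gene, with the match in capitals, which here lies on the other strand. Trem2 is on the forward strand at chr17:48346151-48346400 and C1qc on the reverse strand at chr4:136892915-136893164.
Trem2: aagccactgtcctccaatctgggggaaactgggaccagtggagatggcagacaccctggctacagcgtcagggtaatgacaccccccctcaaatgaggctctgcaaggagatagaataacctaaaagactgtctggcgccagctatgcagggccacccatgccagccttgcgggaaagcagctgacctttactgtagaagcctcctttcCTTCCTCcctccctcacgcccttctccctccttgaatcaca
C1qc: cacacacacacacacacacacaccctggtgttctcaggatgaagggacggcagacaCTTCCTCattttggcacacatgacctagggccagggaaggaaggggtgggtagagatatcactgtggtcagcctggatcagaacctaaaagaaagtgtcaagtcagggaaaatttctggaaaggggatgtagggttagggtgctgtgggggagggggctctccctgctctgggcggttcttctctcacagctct
Both strands were searched from 250 bases before to 50 after the start. The motif was found in 4 of 9 risen macrophage markers with a window (44.4%) and in 2 of 10 risen disease-associated genes (20%). Among all tested members with a window it was in 5 of 14 (35.7%) and 5 of 22 (22.7%), and in 4152 of 27025 genes (15.4%). Whether these shares belong to the lists or to the rise was not tested. Over all risen genes it was in 27 of 105 with a window (25.7%). A match is a string of letters in a window and was not tested as a binding site.

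Interferon-stimulated genes formed the list with the most calls. Of 22 tested genes of the interferon response 15 rose and 0 fell, with a median log2 change of 1.02 in mutants and 0.09 in wild types, and all 22 had both 12-week mutants above both 8-week mutants (29% of all genes). Oasl2, a relative of the antiviral oligoadenylate synthetases (mm9 chr5:115346943-115362244), had values of 1.20 and 1.32 at 8 weeks and 6.33 and 6.47 at 12 weeks (log2 change 1.71 ± 0.20, limma adjusted p = 0.0002). In wild types it lay between 0.534 and 0.941 at both ages. Bst2, the membrane protein tetherin that holds budding virus on the cell, had values of 3.21 and 2.59, then 8.71 and 13.3 (log2 change 1.60, limma adjusted p = 0.0016). Ifit1, which binds viral RNA, had values of 1.46 and 0.946, then 6.05 and 4.64 (log2 change 1.53, limma adjusted p = 0.0016). Isg15, a ubiquitin-like modifier, had values of 1.23 and 0.831, then 3.35 and 6.71 (log2 change 1.52, limma adjusted p = 0.0028). For Bst2, Ifit1 and Isg15 the 12-week mutants also lay above all 4 wild types, of which the highest values were 2.68, 1.12 and 1.22. Lgals3bp, a secreted glycoprotein, had values of 7.70 and 8.35, then 25.6 and 22.6 (log2 change 1.48, limma adjusted p = 0.0001). Ifi27l2a was already at 2.84 and 2.85 in mutants at 8 weeks, against 0.423 and 0.704 in wild types, before reaching 12.5 and 10.5 (log2 change 1.70, limma adjusted p = 0.0088). Its call was lost after rescaling, with a pseudocount of 0.1 and without a minimum value (limma adjusted p = 0.082, 0.32 and 0.13). Both 8-week mutants lay above both wild types of that age for 15 of the 22 interferon genes (25% of all genes), Ifi27l2a among them. The difference between genotypes at 8 weeks did not pass for Ifi27l2a (limma adjusted p = 0.12). The transcription factors Irf7 and Irf9, the first a master regulator of the type I interferon response and the second the DNA-binding part of the factor ISGF3, also rose, by 1.13 and 1.03 (limma adjusted p = 0.0014 and 0.0027, genes picked after their values were seen). Stat2, another part of ISGF3, had values of 4.55 and 4.31, then 5.44 and 5.77, and was not called (limma adjusted p = 0.78), also a gene picked after its values were seen. Ifit3 and Ifi27l2a each have a near copy among the risen genes, Ifit3b and Ifi27l2b, and the labels do not say how reads shared by such copies were counted. Of the 15 risen genes Bst2, Ifit1, Ifit3, Lgals3bp and Oasl2 passed in all other settings and Irf7 in all but the minimum of 5, which did not test it, and 9 lost the call without the male mutant of 8 weeks.

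The receptors of interferons and their kinases did not follow, and the listed interferons could not be tested. Of 7 tested genes 0 passed the test (median log2 change 0.14), and Ifna1, Ifna4, Ifnb1 and Ifng were below the minimum for testing. The kinase Jak1 had values of 22.7 and 22.3, then 26.2 and 25.4, and the receptor chain Ifngr2 8.92 and 10.2, then 9.63 and 9.14 (limma adjusted p = 0.9 and 0.99).

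The sequences before the starts of 4 risen interferon genes are shown because they carry the interferon-stimulated response element, the site where ISGF3 and IRF proteins bind, searched as GAAANNGAA. They are from RefSeq (GRCm38.p6), 250 bases that end at the base before the start, 5′ to 3′ on the strand of the gene, with matches on either strand in capitals and overlapping matches run together. Ifit1 and Ifit3 are on the forward strand at chr19:34640639-34640888 and chr19:34583279-34583528, and Isg15 and Bst2 on the reverse strand at chr4:156200819-156201068 and chr8:71537473-71537722.
Ifit1: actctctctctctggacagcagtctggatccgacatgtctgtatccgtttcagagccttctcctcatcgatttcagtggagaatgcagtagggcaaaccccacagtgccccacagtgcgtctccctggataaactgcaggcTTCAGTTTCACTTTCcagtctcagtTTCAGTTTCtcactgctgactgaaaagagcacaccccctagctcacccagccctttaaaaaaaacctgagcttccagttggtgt
Ifit3: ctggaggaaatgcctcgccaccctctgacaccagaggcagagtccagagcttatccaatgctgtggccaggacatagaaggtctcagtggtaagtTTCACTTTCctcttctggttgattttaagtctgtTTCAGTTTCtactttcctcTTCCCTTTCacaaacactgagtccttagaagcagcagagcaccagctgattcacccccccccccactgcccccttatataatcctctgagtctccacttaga
Isg15: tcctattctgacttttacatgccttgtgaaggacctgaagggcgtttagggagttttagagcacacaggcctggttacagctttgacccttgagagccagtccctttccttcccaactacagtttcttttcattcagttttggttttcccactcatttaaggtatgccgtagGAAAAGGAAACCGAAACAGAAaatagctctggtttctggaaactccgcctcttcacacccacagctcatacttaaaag
Bst2: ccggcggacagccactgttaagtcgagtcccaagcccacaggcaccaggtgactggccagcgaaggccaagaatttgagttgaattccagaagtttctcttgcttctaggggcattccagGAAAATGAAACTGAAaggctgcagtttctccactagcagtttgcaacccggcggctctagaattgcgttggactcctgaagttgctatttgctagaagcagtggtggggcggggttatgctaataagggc
Ifit1, Ifit3 and Isg15 hold 3 matches each and Bst2 holds 2, and the matches of Isg15 and of Bst2 overlap, as do 2 of those of Ifit1. The motif was found in 12 of 18 tested interferon genes with a window (66.7%), in 8 of the 12 that rose (66.7%), and in 2638 of 27025 genes (9.76%). Over all risen genes it was in 27 of 105 (25.7%). A list of interferon-stimulated genes is known for this element, so its share there describes the list and not the change with age.

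Class I antigen presentation rose in part. Of 10 tested genes 3 rose, B2m, H2-K1 and Psmb8 (median log2 change 0.98). B2m, the light chain of class I molecules (mm9 chr2:121973422-121978820), had values of 72.9 and 95.2 at 8 weeks and 302 and 219 at 12 weeks (log2 change 1.61 ± 0.22, limma adjusted p = 0.00062). Wild-type B2m read 59.6 and 67.2, then 99.9 and 81.6, so the ages were also apart in wild types, by a log2 change of 0.51 that was not called. H2-K1, a class I heavy chain, had values of 5.32 and 9.51, then 23.4 and 20.7 (log2 change 1.50, limma adjusted p = 0.013). The heavy chains are near copies of one another and reads may have been split between them. Of the 3 calls B2m passed in all other settings, and the other 2 lost it without either 8-week mutant. Psmb8 also lost it in all 7 other processing settings, with limma adjusted p of 0.055 to 0.17, and H2-K1 in 3 of them, at 0.069 to 0.14. Of 6 class II genes 0 passed the test (median 0.45). Cd74, the invariant chain, had values of 1.94 and 2.16, then 3.31 and 7.64, and H2-DMa 4.50 and 3.85, then 5.71 and 6.29 (limma adjusted p = 0.14 and 0.61).

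Among ligands, 4 of 13 chemokines and cytokines rose, Ccl3, Ccl4, Cxcl10 and Cxcl16 (median log2 change 0.75). Ccl3, a chemokine for monocytes and lymphocytes (mm9 chr11:83461346-83462858), had values of 0.929 and 1.03 at 8 weeks and 7.37 and 9.39 at 12 weeks (log2 change 2.24 ± 0.21, limma adjusted p = 3.4e-05). In wild types it was at 0.704 and 0.395 and then at 0.10005 and 0, so the genotypes were far apart at 12 weeks. Ccl4, its neighbour in the genome and a related chemokine, had values of 0.288 and 0.286, then 3.39 and 4.30 (log2 change 1.91, limma adjusted p = 0.0001). Cxcl10, induced by interferons, had values of 1.10 and 0.641, then 4.13 and 8.01 (log2 change 1.87, limma adjusted p = 0.0052). Cxcl16, the ligand of CXCR6, rose by 0.95 (limma adjusted p = 0.016). Ccl3 passed in all other settings and Ccl4 in all but the minimum of 5, which did not test it, and Cxcl10 and Cxcl16 lost the call without the male mutant of 8 weeks or that of 12 weeks. Il1a, Il1b, Il6 and Tnf, the classical inflammatory cytokines, were below the minimum for testing. Among the receptors, 4 of 15 rose (median 0.64). Osmr, the oncostatin M receptor, had values of 1.08 and 0.870, then 3.43 and 4.03 (log2 change 1.26, limma adjusted p = 0.0014). Tgfbr2, the type II receptor of TGF-beta, had values of 1.67 and 1.55, then 3.57 and 3.49 (log2 change 0.79, limma adjusted p = 0.021), and the other 2 were Cx3cr1 and Csf1r. Osmr alone passed in all other settings.

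Markers of cells that enter the cord from blood were near 0 or not called. Of 16 genes listed for T cells and lymphocytes 14 were below the minimum, Cd3d, Cd3e, Cd3g, Cd4 and Cd8a among them, and 5 defining T cell markers summed to 0.122 to 0.364 over the 8 libraries. Of 17 genes listed for monocytes and neutrophils 15 were below it, Ccr2, S100a8 and S100a9 among them, and 5 defining markers summed to 0.0148 and 0.886 in mutants at 8 weeks, 0.134 and 1.61 at 12 weeks and 0.0438 to 0.510 in wild types. The male mutant of 12 weeks was thus the highest in the latter sum. Of the 4 members that were tested, Trac, Ighm, Ly6c1 and Pf4, 0 passed the test.

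Lysosomal genes rose in part. Of 25 tested genes 6 rose and 0 fell (median log2 change 0.59), Cd68, Ctss, Ctsd, Grn and Ctsz among them. Ctsd, the aspartic protease cathepsin D, had values of 157 and 152 at 8 weeks and 451 and 347 at 12 weeks (log2 change 1.36, limma adjusted p = 0.00099). Ctss, the cysteine protease cathepsin S, had values of 49.4 and 48.2, then 136 and 130 (log2 change 1.42, limma adjusted p = 0.00056). Wild types read 146 to 158 for Ctsd and 44.4 to 52.4 for Ctss, at the level of the 8-week mutants. Grn, the lysosomal and secreted protein progranulin, had values of 13.2 and 12.6, then 30.1 and 27.0 (log2 change 1.09, limma adjusted p = 0.0034). Cd68, Ctsd and Ctss passed in all other settings. The lysosomal E-box TCACGTGA was in the windows of 2 of 19 lysosomal genes (10.5%) and of 304 of 27025 genes (1.12%), and in 1 of 105 of all risen genes (0.952%).

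Few genes of lipid handling and 0 of sterol synthesis were called. Of 18 tested genes of lipid handling and cholesterol efflux Ch25h and Abca1 rose (median log2 change 0.46). Ch25h, the enzyme that makes 25-hydroxycholesterol, had values of 0.375 and 0.442 at 8 weeks and 3.89 and 2.52 at 12 weeks (log2 change 1.56, limma adjusted p = 0.0002). Abca1, the transporter that exports cholesterol to apolipoproteins, had values of 3.99 and 3.96, then 7.83 and 7.31 (log2 change 0.78, limma adjusted p = 0.021). Of 18 tested genes of cholesterol synthesis 0 passed the test, while 16 had both 12-week mutants below both 8-week mutants, which held for 18.5% of all genes. After median-of-ratios rescaling 2 of the 18 passed as lower, and 4 by voom on recovered reads, a setting with more calls over all genes. The list had a median of −0.37 in mutants and −0.01 in wild types, where 3 of 18 were below (21.5% of all genes). Cyp51, lanosterol demethylase, had values of 44.9 and 44.8, then 33.2 and 37.6 (log2 change −0.34, limma adjusted p = 0.71). In wild types Cyp51 read 45.1 and 56.4 and then 47.5 and 40.4, with overlapping ages. Ch25h passed in all other settings but the minimum of 5, which did not test it, and Abca1 lost the call without any 1 of the 4 mutants.

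**Figure D3:**
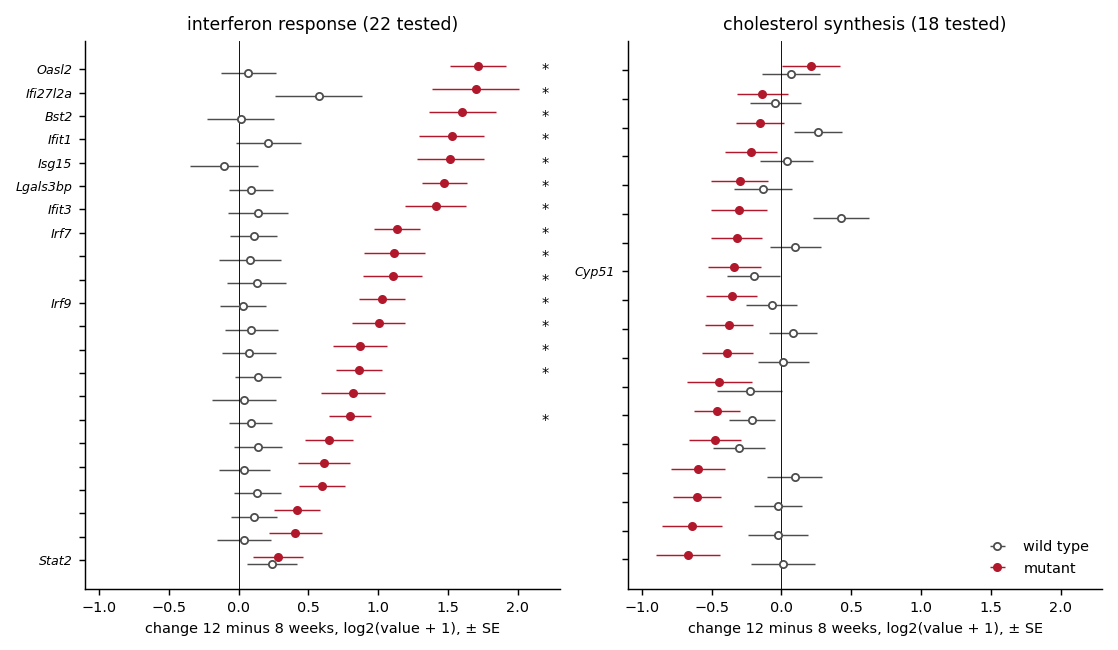
Change from 8 to 12 weeks of each tested gene of the interferon response (22, left) and cholesterol synthesis (18, right) in mutants (red) and wild types (open), as differences of log2(value + 1) with bars of ± 1 SE from the model, and a star for genes that passed the test in mutants, with names for genes that the text describes. Of the interferon genes 15 rose in mutants and the wild-type points lie near 0 (median 0.09), while the cholesterol genes have a median of −0.37 in mutants without a call.

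Part of the astrocyte transcripts rose, with more calls in the reactive list than among general markers, a difference between lists that was not tested. Of 15 tested reactive astrocyte genes 9 rose and 0 fell (median log2 change 0.86), against 2 of 15 general astrocyte markers (median 0.34), of which 12 had both 12-week mutants above both 8-week mutants (29% of all genes). Serpina3n, a secreted serine protease inhibitor (mm9 chr12:105644939-105652540), had values of 35.6 and 35.4 at 8 weeks and 129 and 145 at 12 weeks (log2 change 1.91 ± 0.18, limma adjusted p = 3.4e-05). Wild-type values were 23.9 to 31.5, lower than in the 8-week mutants. Timp1, an inhibitor of matrix metalloproteinases, had values of 1.19 and 1.20, then 5.68 and 7.32 (log2 change 1.76, limma adjusted p = 0.00035). Vim, the intermediate filament vimentin, had values of 45.6 and 31.5, then 88.7 and 108 (log2 change 1.35, limma adjusted p = 0.011). S1pr3, a receptor of sphingosine 1-phosphate, rose by 1.15 (limma adjusted p = 0.014). Gfap, the filament that defines reactive astrocytes (mm9 chr11:102748650-102762227), had values of 521 and 528, then 887 and 989 (log2 change 0.84 ± 0.18, limma adjusted p = 0.021). In wild types Gfap went the other way, from 511 and 491 to 383 and 361, a log2 change of −0.43 that was not called. The 6 defining astrocyte markers, Gfap among them, summed to 1020 and 1045 in mutants at 8 weeks and to 1633 and 1686 at 12 weeks. Wild types had 1176 and 1093 and then 882 and 870. Only 1 of the 6, Gfap, was called, and it gave the larger part of the rise of the sum in mutants. In wild types 11 of the 15 general markers had both 12-week values below both of 8 weeks (21.5% of all genes), and the list's median there was −0.30. Osmr and Serpina3n passed in all other settings, and 6 of the 9 lost the call without the male mutant of 8 weeks or without that of 12 weeks.

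Of 13 genes listed for neurotoxic-type astrocytes 3 rose (Iigp1, Gbp2 and Psmb8, median log2 change 0.71) and of 7 for protective-type astrocytes 3 rose (Cd109, Cd14 and Emp1, median 0.60). Iigp1 and Gbp2 are GTPases induced by interferons, and had values of 0.264 and 0.262, then 2.54 and 3.21, and of 1.38 and 1.32, then 5.29 and 4.95 (limma adjusted p = 0.00056 and 0.0002). Cd109, a membrane protein that binds TGF-beta, had values of 1.59 and 1.47, then 6.45 and 5.21 (log2 change 1.43, limma adjusted p = 0.00022). Of the members that rose, Cd14 is also on the list of microglia and macrophage markers and Psmb8 on that of class I antigen presentation. Which cells carried the rise was not tested. Emp1 lost its call in 5 of the 7 other processing settings, with limma adjusted p of 0.055 to 0.17. C3 of the neurotoxic-type list was not called.

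Neuronal transcripts gave 0 calls. Of 19 tested motor neuron markers, 15 neurofilament and axon cytoskeleton genes and 22 pan-neuronal and synaptic genes 0 passed the test in either direction. The test of the difference between genotypes called 0 of them too, while 1 of the 15 passed as lower by voom on recovered reads. The medians were −0.04, −0.12 and −0.04 in mutants and 0.15, 0.12 and 0.10 in wild types. Unadjusted p-values under 0.05 numbered 1216 over all genes in the comparison of the mutant ages. Chat, the enzyme that makes acetylcholine (mm9 chr14:33221389-33279096), had values of 8.58 and 7.28 in mutants at 8 weeks and 7.51 and 8.53 at 12 weeks, against 9.48 and 8.13 and then 10.8 and 9.55 in wild types. Slc5a7, the choline transporter of cholinergic terminals, had values of 19.4 and 14.6, then 33.7 and 25.0, and Prph, the filament peripherin, 30.4 and 29.4, then 20.4 and 27.1 (limma adjusted p = 0.41 and 0.7). The neurofilament chains Nefl and Nefm had values of 686 and 675, then 594 and 652, and of 525 and 522, then 345 and 515 (limma adjusted p = 0.94 and 0.8). In the female mutant of 12 weeks Prph and Nefm were lower than in the 3 other mutants. The 5 motor neuron markers found summed to 60.2 and 53.0 in mutants at 8 weeks and 62.9 and 62.4 at 12 weeks. Wild types had 68.5 and 66.9, then 85.0 and 67.3, above every mutant. The 5 neuron markers summed to 536 and 508, then 525 and 542 in mutants, and to 522 and 520, then 665 and 640 in wild types. The SE of the change in Chat was 0.22 on the log2 scale. The smallest change called among all genes was 0.71 for rises and −0.81 for falls. Those sizes are not a limit of detection, since the motor neuron markers spanned −0.83 to 0.75 with 0 calls. Neuronal changes of such sizes or smaller may thus have gone undetected.

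Of 21 tested genes of axon injury and regeneration 2 rose, Sprr1a and Atf3, with a list median near 0 whose sign depends on the scaling. Atf3, a transcription factor induced in neurons whose axons are cut, had values of 1.04 and 1.16 at 8 weeks and 3.10 and 3.22 at 12 weeks (log2 change 0.99, limma adjusted p = 0.03). Sprr1a, a small proline-rich protein of regenerating axons, had values of 1.20 and 1.96, then 5.63 and 3.76 (log2 change 1.14, limma adjusted p = 0.035). Wild types read at most 0.723 for Atf3 and 1.26 for Sprr1a, below the 12-week mutants for both. Each lost its call without the female mutant of 12 weeks and without either mutant of 8 weeks, and Atf3 also without the male of 12 weeks (limma adjusted p = 0.11). Sprr1a lost it in all 7 other processing settings, with limma adjusted p of 0.051 to 0.45, and Atf3 with a pseudocount of 0.1 and without a minimum value. The immediate early gene Fos had values of 3.15 and 4.27, then 7.10 and 7.24 (log2 change 0.80, limma adjusted p = 0.019) and was the only call among 12 such genes. That call was lost without the female mutant of 12 weeks and without either mutant of 8 weeks. It was also lost after median-of-ratios rescaling, without a minimum value and without the sex term (limma adjusted p = 0.055, 0.051 and 0.086).

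Stress responses were largely without calls. Of 21 tested genes of the unfolded protein and integrated stress response, 13 heat shock genes and 14 cell death genes 0 passed the test. The cell death list had a median log2 change of 0.30, and 9 of the 14 had both 12-week mutants above both 8-week mutants (29% of all genes). Of the 14, 1 passed as higher after median-of-ratios rescaling and 4 by voom on recovered reads. Hspa5, the chaperone BiP of the endoplasmic reticulum, had values of 67.4 and 56.0, then 83.2 and 63.9, and Bax, an effector of apoptosis, 10.7 and 10.5, then 8.08 and 11.0 (limma adjusted p = 0.9 and 0.92). Hspa8, a constitutive chaperone, had a fitted log2 change of 3.22 without a call (limma adjusted p = 0.31), since its values were 90.5 and 2.03, then 135 and 176. Of 24 genes of oxidative stress and metal binding 4 rose: Cybb and Cyba, which form the membrane part of the phagocyte NADPH oxidase, with the heme oxygenase Hmox1 and the peroxiredoxin Prdx6. Cybb had values of 0.144 and 0.260, then 3.03 and 2.12 (log2 change 1.56, limma adjusted p = 0.0001), and Hmox1 1.86 and 2.37, then 4.66 and 5.59 (log2 change 0.98, limma adjusted p = 0.0043). Of 12 genes of iron handling Slc11a1, the phagosomal metal transporter NRAMP1, rose beside Hmox1 (log2 change 1.27, limma adjusted p = 0.0016). Of 17 genes of autophagy and ubiquitin only Gpnmb, also on the microglial list, rose (log2 change 1.37, limma adjusted p = 0.0029). Of 24 genes linked to human ALS only Grn rose, and the median of that list was −0.01. Cybb and Slc11a1 passed in all other settings but the minimum of 5, which did not test them.

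Other cell types showed few calls. Of 17 genes of oligodendrocytes and myelin and 10 of their precursors 0 passed the test. After median-of-ratios rescaling 1 of the 17 passed as lower, and 4 by voom on recovered reads. Mbp, myelin basic protein, had values of 1597 and 1746, then 1308 and 1510 (limma adjusted p = 0.82). Wild types had values of 1794 and 1953, then 1308 and 1335, and the defining oligodendrocyte markers summed lower at 12 than at 8 weeks in both genotypes. Of 17 endothelial, 9 pericyte and smooth muscle, 8 cell division and 15 postnatal maturation genes 0 passed the test. By voom 2 endothelial genes passed as higher and 1 as lower. Of 21 genes of extracellular matrix and TGF-beta Timp1 and Fmod rose, the latter encoding the collagen-binding fibromodulin (3.36 and 5.21, then 8.75 and 8.96, log2 change 0.92, limma adjusted p = 0.013). Red blood cell genes gave 0 calls, and their markers summed higher in the male than in the female at both ages in both genotypes. The sums were 194 and 448, then 152 and 455 in mutants, and 323 and 365, then 262 and 651 in wild types. Schwann cell markers summed to 24.8 in the male mutant and 25.2 in the female wild type of 8 weeks and to at most 5.48 elsewhere, so 2 of the 8 libraries differed in them, and their part in other results was not tested. Of 8 ependymal genes Vim and Sox2 rose, neither specific to that cell type.

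**Figure D4:**
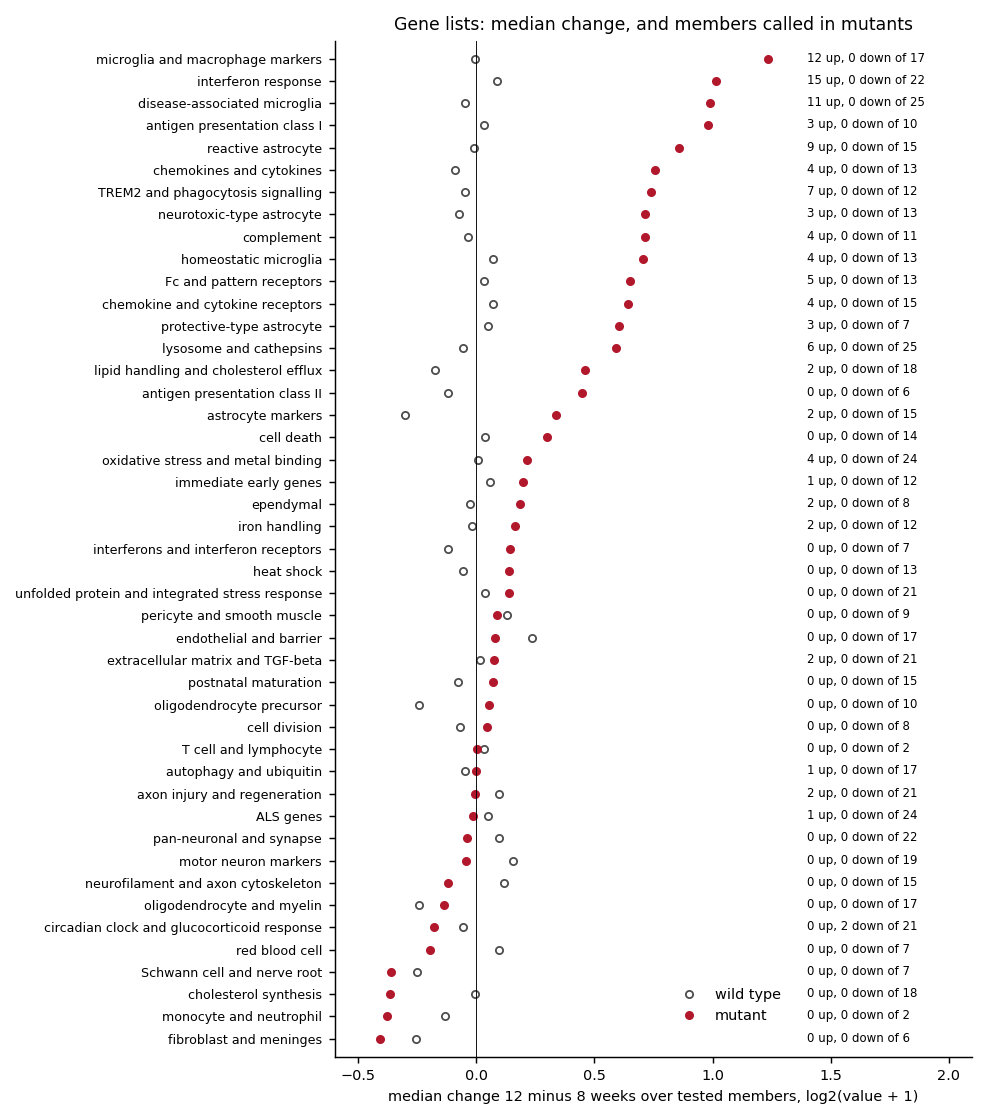
Median change from 8 to 12 weeks over the tested members of 45 gene lists in mutants (red) and wild types (open), as differences of log2(value + 1), with the number of members that passed the test in mutants at the right. Microglia and macrophage markers (median 1.24) and interferon response genes (1.02) lie highest in mutants, neuronal lists lie near 0, and wild-type medians lie between −0.30 and 0.24.

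The 32 fallen genes had a median log2 change of −1.04 and were a different kind of set. Their median length was 1403.5 bases, against 2449 for the risen and 3324 for all genes tested, and 6 of them were under 500 bases long (18.75%, against 4.29% of all genes). In wild types they had a median change of −0.37, and 3 of them fell there too, Pttg1, Npsr1 and the pseudogene Gm13841. Scand1, a small nuclear SCAN-domain protein, fell most, from 34.3 and 28.2 to 2.61 and 11.7 (log2 change −2.24, limma adjusted p = 0.033), and wild types had 32.5 and 36.6, then 10.9 and 12.8. Pttg1, securin, had values of 5.97 and 6.44, then 0.879 and 1.11 (log2 change −1.86, limma adjusted p = 0.00026). Wild-type Pttg1 went from 6.26 and 6.32 to 0.562 and 0.753, so the step was shared by both genotypes. The other named falls were Akirin1-ps, Gm12452, 2610507I01Rik, AC154636.1, Snora7a, Dlk2, Gm5784 and Npsr1, of which Dlk2 and Npsr1 are annotated as protein coding. Dlk2, a transmembrane relative of the Notch ligands, had values of 5.82 and 2.87, then 1.13 and 0.841 (log2 change −1.38, limma adjusted p = 0.042). At 8 weeks 21 of the 32 had both mutants above both wild types (25% of all genes), in libraries that the choice of these genes also used. Of the 32 calls 29 were lost without the female mutant of 12 weeks, and Pttg1 passed in all other settings. The pseudogene Gm13787 passed in those that tested it, which left out 3: the minimum of 5 and the settings without either mutant of 8 weeks.

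Of 21 genes of the circadian clock and glucocorticoid response 2 fell, Dbp and Ciart. Dbp, a clock-driven transcription factor (mm9 chr7:52960458-52965526), had values of 24.0 and 19.1 at 8 weeks and 7.08 and 13.2 at 12 weeks (log2 change −1.07, limma adjusted p = 0.046). In wild types it was at 8.41 and 7.62, then 11.4 and 10.3, so the mutants of 8 weeks stood above the other libraries. Ciart, a repressor in the clock, had values of 5.03 and 4.22, then 1.77 and 2.70, and 2.06 to 2.92 in wild types (log2 change −0.81, limma adjusted p = 0.044). Both calls were lost on leaving out any 1 of 7 of the 8 libraries, and 1 of them without the male mutant of 12 weeks, and each in 4 of 7 other processing settings. The labels do not give the time of day of collection, and its part was not tested.

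Wild-type cord gave the reference for growth over the same weeks. The 7 genes called there were Gm6181 and Gm16272, which rose, and Pttg1, Gm24613, Npsr1, Rps3a3 and Gm13841, which fell. Gm6181, a pseudogene, was listed at 0 in both wild types at 8 weeks and had 2.25 and 2.42 at 12 weeks, while Gm16272, an antisense transcript, had 25.6 and 20.7, then 74.1 and 74.3 (limma adjusted p = 0.005 and 0.013). In mutants these 2 genes were at 1.74 and 2.69, then 0.737 and 1.64, and at 79.9 and 77.8, then 51.0 and 79.0. Npsr1, the receptor of neuropeptide S, went from 1.92 and 2.33 to 0.123 and 0.0835 in wild types and from 1.33 and 1.35 to 0.00636 and 0.0934 in mutants. Pseudogenes, antisense and small nucleolar RNA make up 5 of the 7, and reads of such entries may belong to copies or overlapping genes. At an unadjusted p under 0.05 there were 591 genes, and 0 genes passed after rescaling of the libraries or without a minimum value.

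The difference between the changes of the 2 genotypes was tested directly, and 53 genes passed (0.362% of genes tested), 47 with a more positive change in mutants (0.321%) and 6 with a more negative one (0.041%). Of the 150 risen genes 40 were among the 47, and of the 32 fallen 2 among the 6, which share the mutant libraries. The 8 of largest difference were Ccl3, Cd52, Cst7, Clec7a, Fcrls, Ccl4, Lyz2 and C1qb, with log2 differences of 2.79, 2.69, 2.67, 2.64, 2.50, 2.40, 2.15 and 2.07. For Ccl3 the SE was 0.30 and the limma adjusted p = 0.00062. Fcrls, an Fc receptor-like protein of resting microglia, was not among the risen genes, since its mutant values were 2.68 and 0.619, then 9.63 and 2.15, with wild types at 6.07 and 4.65, then 2.53 and 0.978. It differed by 2.50 (limma adjusted p = 0.041) through steps in both genotypes. Of the 22 tested interferon genes Oasl2 and Lgals3bp passed this test, by 1.64 and 1.39 (limma adjusted p = 0.013 and 0.0093). The 6 with a more negative change in mutants were Gm12452, 2610507I01Rik, Gm6181, Hist1h4h, Gm16272 and 4933408J17Rik, of which Hist1h4h, a histone gene, is protein coding. Hist1h4h had values of 4.68 and 4.08, then 1.55 and 2.54 in mutants and 1.25 and 0.990, then 4.78 and 3.20 in wild types. For this test 20, 17 and 26 genes passed with a pseudocount of 0.1, without a minimum value and with a minimum of 5, and 22 to 82 when 1 library was left out.

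At 12 weeks mutants differed from wild types in 256 genes (1.75%), of which 244 were higher (1.67%) and 12 lower (0.0819%), and 130 of the 150 risen genes were among the former and 3 of the 32 fallen among the latter, with the 12-week mutants shared by both comparisons. At 8 weeks both mutants lay above both wild types for 62 of the 150 risen genes (25% of all genes) and below for 25 (30.9% of all genes). The comparison of mutant with wild type at that age gave 35 calls over all genes (0.239%), 18 higher (0.123%) and 17 lower (0.116%), of which 0 risen genes were higher and 3 lower. Those 3 were Sox2, Gm6517 and Gm10308, named after their values were seen. Sox2, a transcription factor of glial and stem cells, had values of 9.58 and 9.10 in mutants at 8 weeks, then 17.0 and 18.3, and 17.7 and 16.5, then 15.3 and 17.4 in wild types. Its 12-week mutants therefore lay at the wild-type level, and the 8-week mutants below it. Lists differed in how far mutants stood above wild types at 8 weeks. Both mutants lay above both wild types for 12 of 15 reactive astrocyte genes, 15 of 22 interferon genes and 16 of 21 clock and glucocorticoid genes, but for 6 of 17 microglia and macrophage markers, against 25% of all genes.

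The levels at the other ages were as follows, where the step from 8 to 12 weeks is set by the choice of the genes. The median log2(value + 1) of the 150 risen genes was 1.21 and 1.20 in mutants at 4 weeks, 1.33 and 1.29 at 8 weeks, 2.51 and 2.61 at 12 weeks and 2.74 and 2.86 at 17 weeks. Wild types had 1.19 and 1.24, 1.27 and 1.23, 1.29 and 1.26, then 1.02 and 1.25. At 17 weeks, in libraries outside the contrast that chose the genes though within the fit's estimate of spread, 148 of the 150 had both mutants above both wild types, against 11.1% of all genes. The other 2 were Clec2d and Gm10308. At 4 weeks 27 of the 150 had both mutants above (22.4% of all genes) and 33 both below (14.9%). The 32 fallen genes were lowest in mutants at 12 weeks, with medians of 0.95 and 1.05 after 2.17 and 2.03 at 8 weeks, and had 1.45 and 1.44 at 17 weeks. Both mutants lay below both wild types at 17 weeks for 9 of the 32, against 11.2% of all genes.

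The lists differed in how many members were higher still at 17 weeks, a difference that was not tested. Of 25 disease-associated microglia genes 15 had both 17-week mutants above both 12-week mutants, and of 17 microglia and macrophage markers 16 did, which held for 3.37% of all genes. Cst7 reached 22.7 and 37.9, Lyz2 93.2 and 117, and Serpina3n 300.1 and 356. Of 22 interferon genes 2 were higher at 17 weeks in this way and 13 lower, a share near the 60.2% of all genes that were lower. As deposited, Oasl2 had 5.37 and 2.63, Bst2 8.57 and 5.61 and Ifi27l2a 3.54 and 1.44 at 17 weeks, all below both 12-week mutants. Isg15 had 5.86 and 3.56, within the 12-week range, and these genes were picked after their values were seen. The libraries differed in scale, with median-of-ratios factors of 0.651 and 0.941 in mutants at 17 weeks and 1.07 and 1.12 at 12 weeks. Whether these genes are lower at 17 weeks after rescaling was not tested, and the scale also enters the counts above. Still, 21 of the 22 interferon genes had both 17-week mutants above both wild types of that age (11.1% of all genes). The cholesterol genes had medians of 3.75 and 4.12 in mutants at 12 weeks and 2.94 and 3.45 at 17 weeks, and of 3.55 and 4.00 in wild types at 17 weeks. The median over all genes was 2.21 and 2.63 in mutants and 2.29 and 2.63 in wild types at 17 weeks. It was 2.73 and 2.82 in mutants at 12 weeks, so the lower values at 17 weeks were general. The female mutant of 17 weeks was the shallowest of the 16 cords (9710126 reads), but the wild-type female of that age, with a like median, had 21613580 reads. The part of depth was not tested.

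**Figure D5:**
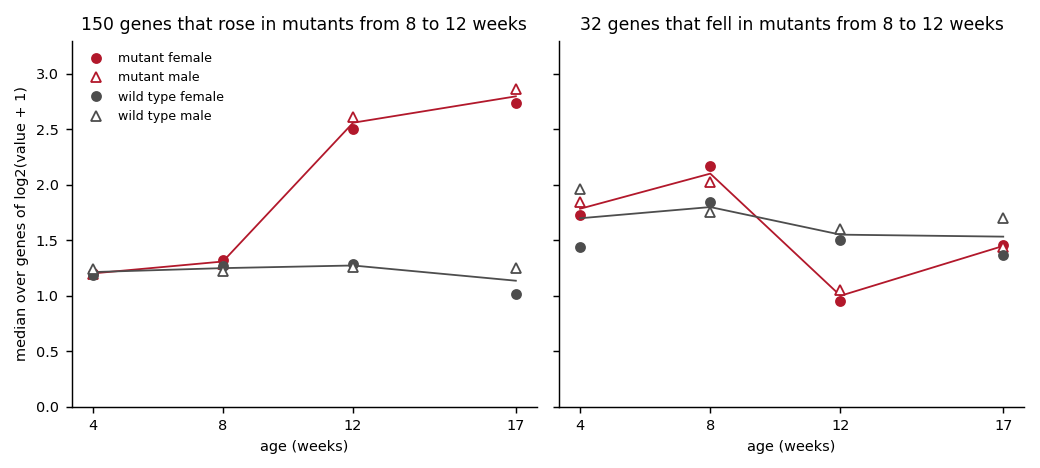
Median over genes of log2(value + 1) in each library at 4, 8, 12 and 17 weeks for the 150 genes that rose (left) and the 32 that fell (right) in mutants from 8 to 12 weeks, with lines through the mean of each pair. The step from 8 to 12 weeks in mutants (red) follows from how the genes were chosen. At 17 weeks the risen genes remain above the wild-type level (grey) in mutants, at 2.74 and 2.86 against 1.02 and 1.25.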

How the data were processed

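Whole spinal cord RNA was sequenced in 16 libraries, of which the 8 of 8 and 12 weeks are compared here. Bowtie and mm9 are named per the submitters' processing notes, and no source used here describes the counting step. The deposited values per gene are a score that resembles RPKM: 100% of them are whole multiples of the value of 1 read for that gene and library (tolerance 0.01 reads), and 898 of 36814 entries are below 0 in some library after a whole number of reads was subtracted. The origin of the subtracted reads is not stated by any source used here, and values below 0 were set to 0. All 16 columns were mapped to labelled samples. Depth was taken from the recovered reads.

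Values were analysed as log2(value + 1) with limma 3.58.1 in R 4.3.3 (a mean for each genotype and age, a term for sex, a variance trend) over 14645 genes with a value of at least 1 in at least 2 libraries, and calls were made where the p-value, adjusted by Benjamini-Hochberg, was under 0.05. The script was tested on simulated data. Entries were named by Ensembl ID where a symbol was paired with it (31841) and otherwise as in the file (4973).

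The comparisons, the 45 gene lists (702 genes, 565 tested, 136 below the minimum, 1 not found) and the naming rule were chosen with earlier results of these data known. Named by rule were Sod1, the 15 largest rises and 10 largest falls in mutants, the called wild-type genes up to 5 each way, 8 higher and 5 lower in the difference between genotypes, up to 6 called members of each list (2 of highest mean value where none was called) and the defining cell markers. Alternatives were median-of-ratios rescaling, a pseudocount of 0.1, no minimum value, a minimum of 5, the 8 libraries alone, no sex term, voom on recovered reads, and each library left out. Some genes are not reported here by name and stay in the counts of their lists.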

Additional observations from a re-analysis of the deposited data

Results flagged for a closer look

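For 37 genes named by rule the change from 8 to 12 weeks differed between mutants and wild types by the test of that difference (limma adjusted p under 0.05), and each is given as the log2 change in mutants minus that in wild types. Among genes of phagocytes and their receptors the differences were 2.69 for Cd52, 2.67 for Cst7, 2.64 for Clec7a, 2.50 for Fcrls, 2.15 for Lyz2, 1.96 for Mpeg1, 1.89 for Fcer1g, 1.79 for Fcgr3, 1.73 for Cd68, 1.54 for Trem2, 1.16 for Cd14 and 1.13 for Tlr2. The complement genes C1qb, C1qc and C3ar1 differed by 2.07, 1.68 and 1.57, and the chemokines Ccl3 and Ccl4 by 2.79 and 2.40. Ctsd and Ctss, both lysosomal proteases, differed by 1.39 and 1.35. Cybb and Cyba of the NADPH oxidase differed by 1.57 and 1.41, Slc11a1 by 1.35 and Ch25h by 1.74. Of genes induced by interferons Oasl2 differed by 1.64, Lgals3bp by 1.39 and Gbp2 by 1.29. Of the astrocyte lists Timp1 differed by 1.77, Serpina3n by 1.69, Gfap by 1.26 and Cd109 by 1.26. For Rps3a3, a pseudogene that fell in wild types, the difference was 1.69.

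In the other direction the differences were −2.60 for Gm12452, −2.38 for 2610507I01Rik, −2.31 for Gm6181, −2.06 for Hist1h4h, −1.98 for 4933408J17Rik and −1.96 for Gm16272. In all 6 both 8-week mutants, or at least the female, lay above both 8-week wild types, and in none of them were both 12-week mutants above both 12-week wild types.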

How the results depend on the processing

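In mutants 182 genes passed, against 119 with a pseudocount of 0.1, 95 with a minimum value of 5, 561 by voom on recovered reads (68.6% of them higher), and 59 to 175 with 1 library left out. In wild types 7 passed, against 0 after rescaling or without a minimum, 3 with the 8- and 12-week libraries alone, 3 by voom, and 1 to 10 with 1 library left out. For the difference 53 passed, against 93 after rescaling, 20 with a pseudocount of 0.1, 17 without a minimum, 26 with a minimum of 5, 202 by voom, and 22 to 82 with 1 library left out. The share of mutant calls that were higher was 56.2% without the male and 94.2% without the female mutant of 12 weeks. No named gene that was called changed sign in any of the 15 settings that tested it. Of 84 named mutant calls 42 to 81 remained when 1 library was left out. With fewer genes tested or fewer libraries these counts are expected to move, and otherwise the cause was not tested. No paired analysis was possible because the cord labels carry no replicate number and sex, the only shared label, is already a term in the model. Depth was 23866988 to 49146066 reads on genes, and what it limits for genes with low values was not tested.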
